A study of Mus musculus with 2 samples.

Results

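The genes Cdkn1b, Cdkn1c, Cdkn2a, Cdkn2b, Cdkn2c and Cdkn2d, which encode the inhibitors of cyclin-dependent kinases (CDKs) other than p21, were followed through mouse colon adenoma cells. They were taken as a list of 6 genes by symbol, and all were present among the 21041 genes of the deposited matrix. The cells came from distal colon adenomas of Apcmin;LSL-mTERT mice aged 25 weeks, in a G4+T group and a G0+T group of 1 library each. Every cell therefore carries the Apcmin mutation, which truncates a brake on Wnt signalling, and the LSL-mTERT allele, a mouse Tert construct behind a removable stop cassette, and the labels name neither the Cre that would remove it nor the number of animals pooled. The authors' annotation assigns 6189 cells to a class CIN_high and 7908 to a class CIN_low, where CIN stands for chromosomal instability. Each class coincides with 1 barcode suffix and so with 1 library. Since the cell names and sample titles disagree on which library is which, neither class was assigned to G4+T or G0+T.

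Passage from the first gap phase into DNA synthesis requires CDK4 or CDK6 with a D-type cyclin and CDK2 with an E-type cyclin, which phosphorylate the retinoblastoma protein and release E2F transcription factors. The Cip/Kip inhibitors p27 (Cdkn1b) and p57 (Cdkn1c) bind assembled cyclin and CDK complexes, whereas the INK4 inhibitors p16 (Cdkn2a), p15 (Cdkn2b), p18 (Cdkn2c) and p19 (Cdkn2d) bind CDK4 and CDK6 themselves. Cdkn2a also encodes p19Arf, which restrains Mdm2 and so protects p53. In the intestine p57 is known from cells that have left the cycle and from quiescent crypt cells, and p27 from differentiating cells.

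Levels are given as UMIs (unique molecules) per 10000 UMIs of a cell, averaged over cells, and the ratio of 2 levels is CIN_high over CIN_low. With 1 library per class there is no replicate error and no test, and the 95% intervals, exact for summed UMIs or for cell numbers, cover counting error only. Ratios past 1.5-fold either way were counted among measured genes, those with a UMI in at least 2% of the cells of 1 library. The libraries held 1316 and 1725 epithelial cells, with a median of 14032.5 UMIs per cell in CIN_high and 15364 in CIN_low, and shared 11 barcodes. Epithelial markers summed to 77.3 and 76.9 in CIN_high and CIN_low epithelial cells, with no marker at 0. Myeloid markers there summed to 7.18 in CIN_high and 16.8 in CIN_low, against 419 and 695 in myeloid cells. Scrublet marked 76.9% of CIN_high and 75.3% of CIN_low Complement+_stem_cell cells as likely doublets, 87.5% and 66.7% of S100a8/s100a9+_cell cells, and 52% of the 25 Igfbp+_cell cells, which were all CIN_high. In the p57+_cancer_cell subtype it marked none, and in Cancer_cell_1 0.182% and 0.141%.

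In epithelial cells all 6 inhibitors were measured, and 1 of them, Cdkn1c, was past 1.5-fold, in the lower direction. Among the 13304 genes measured there, 7.7% were lower and 4.16% higher past that line, 11.9% in all, so 1 of 6 is close to the share among all genes. The median log2 ratio of the inhibitors was -0.054, against -0.097 over all measured genes. For comparison, Cdkn1a, which encodes p21, stood at 4.90 in CIN_high and 2.76 in CIN_low epithelial cells, a ratio of 1.78.

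Cdkn1c (p57), an imprinted gene expressed from the maternal copy, lies on chromosome 7 (143458339 to 143461050, minus strand, mm10). Its epithelial level was 0.630 in CIN_high and 1.18 in CIN_low, a ratio of 0.536 (summed UMIs, 0.490 to 0.559), or 1.87-fold lower. Among epithelial cells, 23.3% of those in CIN_high and 40.3% of those in CIN_low had at least 1 UMI, and with every cell thinned to 5000 UMIs the shares were 13.1% and 24.3%. The transcripts were unevenly held: the tenth of cells richest in Cdkn1c carried 82.8% of its epithelial UMIs in CIN_high and 69.8% in CIN_low. Such a share depends on how many cells hold any UMI. In CIN_high and CIN_low it was 48.7% and 45.6% for Cdkn1b, 60.3% and 55.7% for Cdkn2a, and 56.7% and 64.2% for Cdkn2b. For Cdkn2c it was 100% in both, and for Cdkn2d 100% and 93.1%. Cells with 10 or more UMIs numbered 29 in CIN_high and 90 in CIN_low, and the richest single cell had 42 and 83.

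The ratio was also read within the authors' epithelial subtypes. In Cancer_cell_1, the subtype with most cells in each library, Cdkn1c averaged 0.588 in 549 CIN_high cells and 1.12 in 710 CIN_low cells, a ratio of 0.527 (0.460 to 0.566). After thinning, 15.3% (12.3% to 18.7%) of these CIN_high cells and 27.5% (24.2% to 31.0%) of the CIN_low cells had a UMI. In the p57+_cancer_cell subtype, which the authors named for this gene, it averaged 4.91 in 77 CIN_high cells and 4.78 in 211 CIN_low cells, a ratio of 1.03 (0.967 to 1.198). Because this subtype is named for Cdkn1c, both its high level and a ratio near 1 within it are partly set by how its cells were grouped, and they are given as a description. In Stem_cell_1 the level was 0.0898 in CIN_high and 0.139 in CIN_low, a ratio of 0.644 (0.450 to 0.911), and in Proliferating cells it was 0.340 and 0.310, a ratio of 1.10 (0.851 to 1.41). Past 1.5-fold, the inhibitors in single subtypes numbered 1 of 5 measured in Cancer_cell_1 (Cdkn1c, lower), where 8.48% of genes were lower and 5.98% higher (14.5% in all), and 1 of 5 in Stem_cell_1 (Cdkn1c, lower), where 13.1% were lower and 8.73% higher (21.8% in all). None of 5 passed the line in p57+_cancer_cell cells, where 17.4% of genes were higher and 16% lower (33.4% in all). In Proliferating cells 1 of 6, Cdkn2d, was lower, where 13.8% were lower and 11.1% higher (24.9% in all). In Enterocyte cells Cdkn1c was higher and Cdkn2d (4 and 10 UMIs in CIN_high and CIN_low) lower by mean levels, where 17.4% were higher and 22.9% lower (40.3% in all). The direction for Cdkn1c there turned with the measure, since the mean ratio was 1.52 and that of summed UMIs 0.667 (0.245 to 1.68), on 8 UMIs in CIN_high and 15 in CIN_low. For Cdkn1c the interval of Cancer_cell_1 lies wholly below that of Proliferating cells, and the difference between subtypes was not tested with replicates.

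**Figure D1:**
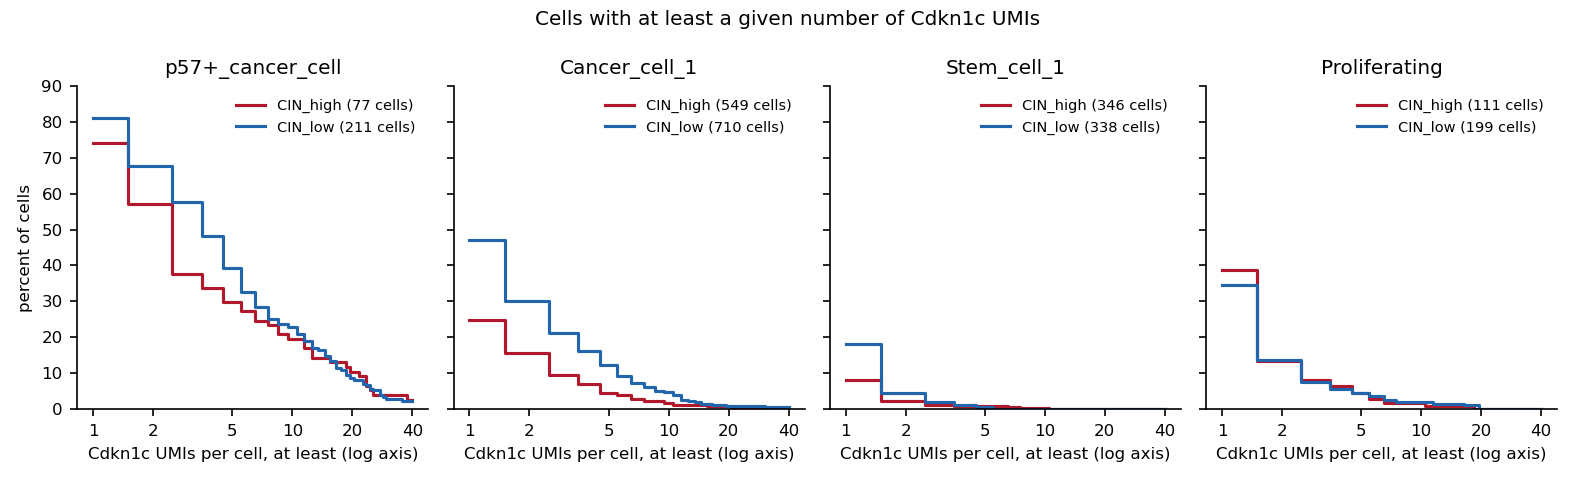
Percent of cells (vertical axis) with at least the number of Cdkn1c UMIs on the horizontal axis (log scale), in 4 epithelial subtypes, with CIN_high in red and CIN_low in blue. The lines part in Cancer_cell_1, where 4.55% of CIN_high and 12.3% of CIN_low cells had 5 UMIs or more, and run close together in Proliferating cells, at 4.50% and 4.52%.

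The subtype named for p57 was also smaller, making up 5.85% (4.64% to 7.26%) of the epithelium in CIN_high and 12.2% (10.7% to 13.9%) in CIN_low. It contributed 452 of the 1197 Cdkn1c UMIs in CIN_high epithelium and 1462 of the 3397 in CIN_low, while Cancer_cell_1 contributed 495 and 1428. With both libraries set to 1 common subtype mix, Cdkn1c averaged 0.778 in CIN_high and 1.02 in CIN_low, a ratio of 0.764 that no longer passed 1.5-fold. That mix fixes the share of the subtype named for Cdkn1c at 9.25%, so this ratio too is partly set by how cells were grouped. It also leaves out S100a8/s100a9+_cell and Igfbp+_cell cells, which had fewer than 10 cells in at least 1 library. With the p57+_cancer_cell subtype left out and no common mix set, the levels were 0.365 and 0.674 and the ratio 0.541. In Complement+_stem_cell cells the level was 0.0914 in 39 CIN_high and 0.770 in 85 CIN_low cells, and in S100a8/s100a9+_cell cells 1.93 in 8 and 1.19 in 36. Most cells of both subtypes were marked as likely doublets, whose part in these values was not tested.

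Cdkn1b (p27), on chromosome 6 (134920401 to 134925513, plus strand), was nearly level in epithelium, at 0.382 in CIN_high and 0.422 in CIN_low, a ratio of 0.904 (0.867 to 1.03). The highest subtype was Complement+_stem_cell, at 0.932 in CIN_high and 0.739 in CIN_low. That subtype also carried myeloid markers at 39.3 and 34.3, against 1.82 and 4.54 in Cancer_cell_1, and Cdkn1b is abundant in myeloid cells, as given below. The part of such RNA in the Cdkn1b level was not tested. Proliferating cells stood at 0.564 in CIN_high and 0.614 in CIN_low, with an interval that overlapped that of Complement+_stem_cell cells in at least 1 library. Cancer_cell_1 was near the bottom at 0.287 and 0.326. In p57+_cancer_cell cells the level was 0.283 in CIN_high and 0.418 in CIN_low, a ratio of 0.676 whose interval included 1 (0.436 to 1.06).

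**Figure D2:**
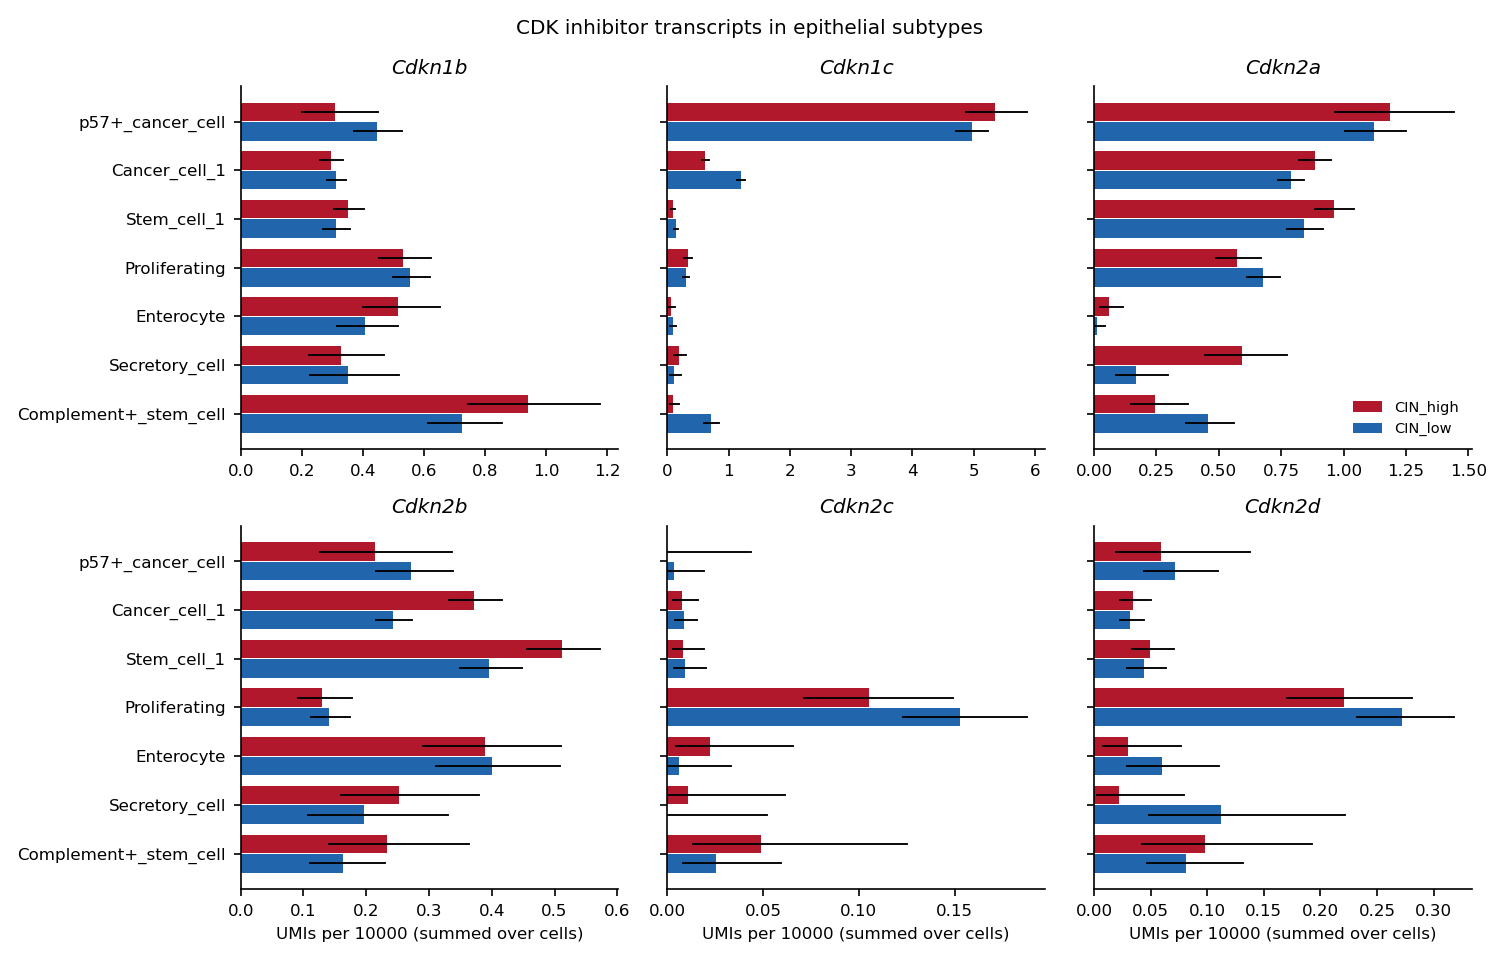
Summed UMIs of each inhibitor per 10000 UMIs (horizontal axes, each with its own scale) in 7 epithelial subtypes, CIN_high in red above CIN_low in blue, with 95% Poisson intervals as black lines. Among these 7, Cdkn1c peaks in p57+_cancer_cell cells, Cdkn2c and Cdkn2d in Proliferating cells, and Cdkn2a is near 0 in Enterocyte cells. For Cdkn2c and Cdkn2d the Proliferating interval overlaps that of Complement+_stem_cell cells in at least 1 library.

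Cdkn2a and Cdkn2b are neighbours on the minus strand of chromosome 4 (89274471 to 89294653 and 89306299 to 89311039, mm10), with 11645 bases between them. The p16 and p19Arf transcripts of Cdkn2a start at different first exons (89281986 to 89282192 and 89294334 to 89294653) and share exon 2 and all but the last bases of exon 3. Molecules counted near the 3′ end therefore cannot be assigned to p16 or p19Arf, and every Cdkn2a value here is the sum of both. The 250 bases before each start are shown because the pair was detected together in cells, and because p16 and p19Arf start from separate promoters. They are RefSeq sequence of GRCm38.p6, read 5′ to 3′ on the minus strand, at chr4:89282193-89282442 for p16, chr4:89294620-89294869 for p19Arf and chr4:89311033-89311282 for Cdkn2b, with motif matches in capitals. The bounds given above come from GENCODE, and end upstream of the RefSeq starts of p19Arf (89294653) and Cdkn2b (89311039). The last bases of those stretches therefore lie inside the genes by GENCODE.
Cdkn2a, p16 start: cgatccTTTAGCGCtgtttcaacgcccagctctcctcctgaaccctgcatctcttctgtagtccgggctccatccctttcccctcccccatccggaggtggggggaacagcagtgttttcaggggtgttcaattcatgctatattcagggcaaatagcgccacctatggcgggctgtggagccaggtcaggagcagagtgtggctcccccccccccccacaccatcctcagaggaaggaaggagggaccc
Cdkn2a, p19Arf start: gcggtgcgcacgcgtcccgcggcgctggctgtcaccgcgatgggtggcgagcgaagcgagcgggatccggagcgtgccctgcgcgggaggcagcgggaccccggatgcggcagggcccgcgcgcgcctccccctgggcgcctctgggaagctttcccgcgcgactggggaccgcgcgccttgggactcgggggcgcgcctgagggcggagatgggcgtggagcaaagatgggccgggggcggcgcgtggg
Cdkn2b: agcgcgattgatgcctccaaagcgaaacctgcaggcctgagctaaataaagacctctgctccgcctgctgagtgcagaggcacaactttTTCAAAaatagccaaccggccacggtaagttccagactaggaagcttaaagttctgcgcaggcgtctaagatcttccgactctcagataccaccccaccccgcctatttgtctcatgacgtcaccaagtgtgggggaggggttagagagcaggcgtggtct
The capitals before the p16 start are a match to an E2F motif, TTTNGCGC, 244 bases upstream, found on either strand in 1.13% of 32851 promoters of this length. The stretch before the p19Arf start had no match and was 78.4% G and C with 40 CpG pairs, against medians of 52.4% and 6 over all promoters. The capitals 161 bases before the Cdkn2b start are a reverse-strand match to the cell cycle homology region, TTTGAA, which 16.0% of promoters hold. The other motifs searched, on both strands, were the CCAAT box, the TCF motif CTTTGA (13.8% of promoters), the FOXO motif GTAAACA (3.17%) and the N box, and none of them was found in these 3 stretches.

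Cdkn2a was close to equal in the libraries. Its epithelial level was 0.736 in CIN_high and 0.717 in CIN_low, a ratio of 1.03 (summed UMIs, 1.01 to 1.15), with a UMI in 40.1% and 44.1% of cells. It was spread over most adenoma subtypes, at 1.18 and 1.22 in p57+_cancer_cell cells of CIN_high and CIN_low, 0.816 and 0.745 in Cancer_cell_1, 0.873 and 0.757 in Stem_cell_1, and 0.554 and 0.612 in Proliferating cells. Enterocytes, the absorptive cells, were lowest in both libraries, with intervals below those of the next subtype up, on 8 UMIs in 107 CIN_high cells and 2 in 98 CIN_low cells. Secretory cells had 0.456 in 54 CIN_high and 0.109 in 48 CIN_low cells, from 54 and 12 UMIs, and fell short of the 50 cells per library needed for a ratio.

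Cdkn2b (p15), a gene known to respond to TGF-beta, was higher in CIN_high epithelium without passing 1.5-fold, at 0.341 against 0.255 in CIN_low, a ratio of 1.34 (1.26 to 1.53). In Cancer_cell_1 the level was 0.339 in CIN_high and 0.232 in CIN_low, a ratio of 1.46 (1.30 to 1.80). In Stem_cell_1 it was 0.476 and 0.350, a ratio of 1.36 (1.09 to 1.53). Proliferating cells were low, at 0.139 in CIN_high and 0.127 in CIN_low. There the ratio of mean levels was 1.09 but that of summed UMIs 0.914 (0.606 to 1.36), so no direction is given. Unlike Cdkn2a, Cdkn2b was present in enterocytes, at 0.323 in CIN_high and 0.465 in CIN_low, on 52 and 67 UMIs. Their ratio of mean levels was 0.696 but that of summed UMIs 0.970 (0.662 to 1.41), so again no direction is given.

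Cdkn2b was detected more often in cells with Cdkn2a than in cells without. At 5000 UMIs per cell, 23.0% (18.1% to 28.6%) of the 265 CIN_high epithelial cells with a Cdkn2a UMI also had one of Cdkn2b, against 11.5% (9.50% to 13.7%) of the 942 without. In CIN_low the shares were 16.3% (12.7% to 20.4%) of 374 cells and 8.65% (7.15% to 10.3%) of 1249. The gap was also present inside Cancer_cell_1, at 24.8% against 10.9% in CIN_high and 16.9% against 7.06% in CIN_low. In Stem_cell_1 the intervals overlapped in both libraries, at 25.0% against 13.5% in CIN_high and 18.2% against 13.0% in CIN_low. Of 145 such shares computed for pairs of inhibitors, counting each pair from both sides and within subtypes, 11 had intervals that did not overlap. All but 2 of these concerned Cdkn2a with Cdkn2b. Those 2 were Cdkn2a with Cdkn1b in CIN_high Cancer_cell_1, seen from either gene: 10.6% (4.37% to 20.6%) of 66 cells with Cdkn1b and 26.6% (22.5% to 30.9%) of 444 without had Cdkn2a. In CIN_low Cancer_cell_1 the same shares were 26.3% and 25.8%, with overlapping intervals.

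**Figure D3:**
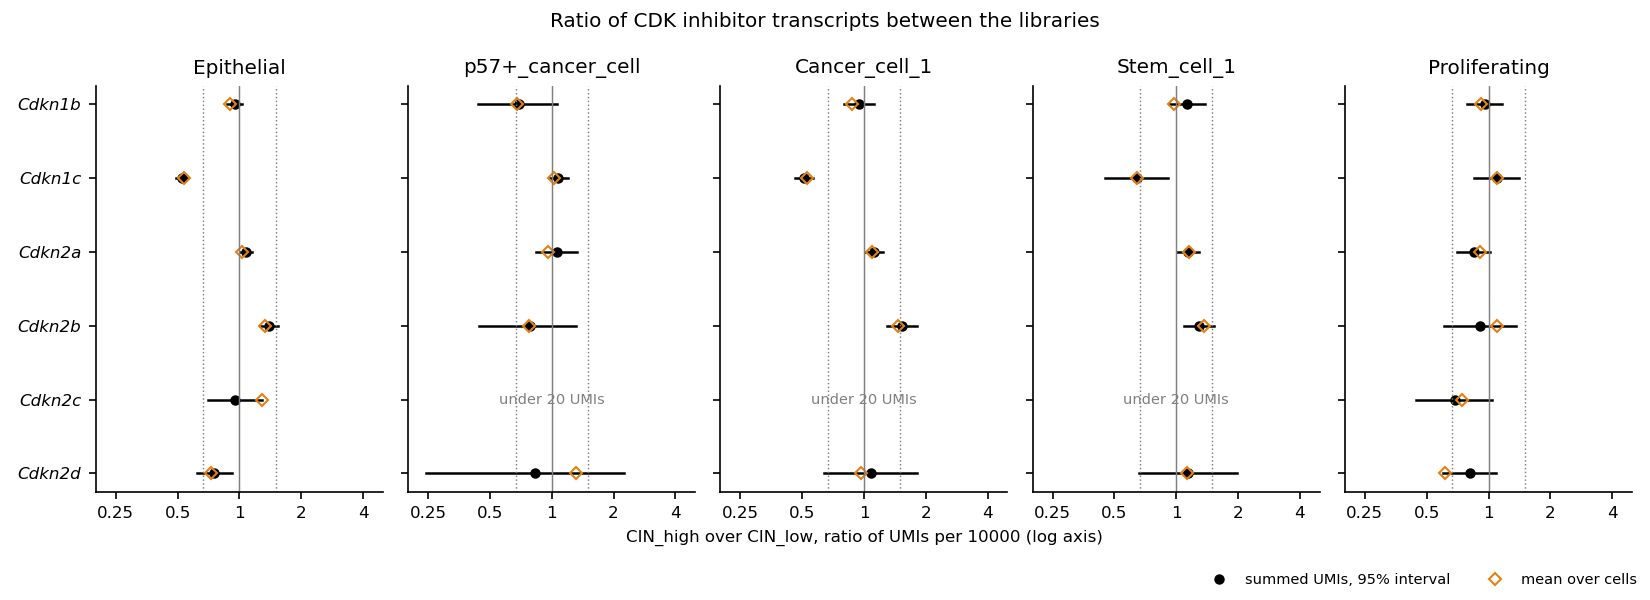
Ratio of CIN_high over CIN_low (horizontal axes, log scale) for each inhibitor in epithelial cells and 4 subtypes. Black points are ratios of summed UMIs with 95% counting intervals, open diamonds are ratios of mean levels, and dotted lines mark 1.5-fold either way. Cdkn1c lies left of the dotted line in all epithelial cells, Cancer_cell_1 and Stem_cell_1, but near 1 in p57+_cancer_cell cells (1.03) and Proliferating cells (1.10).

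Cdkn2c (p18, chromosome 4, 109660876 to 109667189, minus strand) and Cdkn2d (p19, chromosome 9, 21288410 to 21291407, minus strand) gave the fewest epithelial UMIs of the 6, with the largest number of them in Proliferating cells. The promoters of this pair are shown for that common pattern, again 250 bases before each start from RefSeq GRCm38.p6, minus strand. Cdkn2c has an upstream start, with the stretch chr4:109666757-109667006, and a downstream one, with chr4:109665373-109665622. The Cdkn2d stretch is chr9:21291210-21291459. These starts differ from the gene bounds given above, which come from GENCODE. Both Cdkn2c stretches lie inside the GENCODE span of the gene, and the Cdkn2d stretch lies mostly inside its span, which ends at 21291407. The stretches are therefore upstream of the RefSeq starts but hold bases that GENCODE places in the genes.
Cdkn2c, upstream start: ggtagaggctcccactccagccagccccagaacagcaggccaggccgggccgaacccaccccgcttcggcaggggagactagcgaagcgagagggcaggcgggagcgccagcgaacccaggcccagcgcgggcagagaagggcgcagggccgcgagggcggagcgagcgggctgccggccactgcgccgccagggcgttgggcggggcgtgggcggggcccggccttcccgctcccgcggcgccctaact
Cdkn2c, downstream start: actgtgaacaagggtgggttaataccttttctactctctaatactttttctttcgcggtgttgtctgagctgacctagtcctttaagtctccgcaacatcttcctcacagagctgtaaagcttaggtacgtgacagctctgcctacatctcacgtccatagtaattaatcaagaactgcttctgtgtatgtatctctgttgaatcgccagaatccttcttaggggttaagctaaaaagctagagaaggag
Cdkn2d: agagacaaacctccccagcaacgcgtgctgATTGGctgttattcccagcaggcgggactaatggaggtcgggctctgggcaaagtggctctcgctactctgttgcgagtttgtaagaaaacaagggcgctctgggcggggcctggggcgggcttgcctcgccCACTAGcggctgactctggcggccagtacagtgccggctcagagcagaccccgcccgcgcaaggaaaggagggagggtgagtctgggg
In Cdkn2d the capitals are a reverse-strand CCAAT box, a motif of 33.8% of promoters, and an N box, CACNAG, the motif bound by Hes repressors, found in 36.7%. Neither Cdkn2c stretch held any of the 6 motifs searched. Cdkn1b, whose stretch is not shown, had 2 CCAAT boxes, and 5 of the 6 inhibitor genes had an entry in the promoter table.

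Cdkn2c gave 75 UMIs in CIN_high and 117 in CIN_low epithelial cells, a level of 0.0313 and 0.0242. The mean ratio was 1.29 but that of summed UMIs 0.952 (0.703 to 1.28), so no direction is given. Proliferating cells held 31 of the 75 UMIs in CIN_high and 91 of the 117 in CIN_low, with a level of 0.103 and 0.139 and a UMI in 18.9% and 29.1% of cells. In p57+_cancer_cell cells there was no UMI in 77 CIN_high cells and 1 in 211 CIN_low cells. A further 25 UMIs came from 3 of the 25 Igfbp+_cell cells of CIN_high, a subtype with fibroblast markers at 25.0 against 0.0852 in Cancer_cell_1 of that library, and the part of fibroblast RNA in that value was not tested. Without the 3 subtypes with most Scrublet marks, an alternative chosen after seeing the data, the epithelial levels were 0.0153 in CIN_high and 0.0238 in CIN_low, a ratio of 0.644.

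Cdkn2d had an epithelial level of 0.0574 in CIN_high and 0.0794 in CIN_low, a ratio of 0.723 (0.618 to 0.919). Proliferating cells stood at 0.172 in CIN_high and 0.281 in CIN_low, against 0.0339 and 0.0351 in Cancer_cell_1. The 8 CIN_high and 36 CIN_low S100a8/s100a9+_cell cells had 0.407 and 0.364, beside myeloid markers at 551 and 410, and the part of myeloid RNA in that value was not tested. In Proliferating cells the ratio of mean Cdkn2d levels, 0.612, was past 1.5-fold, but that of summed UMIs was 0.811 (0.598 to 1.09). Proliferating cells were a smaller share of CIN_high than of CIN_low epithelium, 8.43% and 11.5%, and were the deepest named subtype, at 24594 and 24592 median UMIs. Without them the epithelial Cdkn2d levels were 0.0468 and 0.0531.

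At 5000 UMIs per cell, cells with and without each inhibitor were compared for a UMI of Mki67 or Top2a, which mark cycling cells. In CIN_high, 9 of 11 cells with Cdkn2c (81.8%, 48.2% to 97.7%) had such a UMI, against 17.2% (15.1% to 19.5%) of cells without. In CIN_low it was 12 of 18 (66.7%, 40.99% to 86.7%) against 23.6% (21.5% to 25.7%). Cells with Cdkn2d showed 37.1% (21.5% to 55.1%) against 17.2% without in CIN_high, and 47.3% (33.7% to 61.2%) against 23.2% without in CIN_low. Cdkn2b ran the other way, at 10.7% (6.44% to 16.3%) with against 18.98% (16.6% to 21.5%) without in CIN_high, and 14.2% (9.32% to 20.4%) against 25.2% (23.0% to 27.5%) in CIN_low.

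For the Cip/Kip genes the intervals were apart in CIN_low and overlapped in CIN_high. Cells with Cdkn1c had the cycling genes in 13.4% (10.2% to 17.2%) against 27.4% (25.0% to 30.0%) of cells without in CIN_low, but in 16.5% (11.04% to 23.2%) against 18.0% (15.7% to 20.5%) in CIN_high. Cells with Cdkn1b had them in 33.7% against 21.9% in CIN_low, with intervals apart, and in 22.1% against 17.0% in CIN_high, with intervals that overlapped. The difference between the libraries was not tested. For Cdkn2a the intervals overlapped in both. Of the 44 splits that could be made within Cancer_cell_1, p57+_cancer_cell, Stem_cell_1 and Proliferating cells, 0 had intervals apart. Many of these splits had little room to come apart. Only 1 of 71 CIN_high and 9 of 195 CIN_low p57+_cancer_cell cells had the cycling genes. In Proliferating cells at least 81.8% had them, with or without any inhibitor. The splits therefore do not decide whether the contrasts also hold within subtypes.

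**Figure D4:**
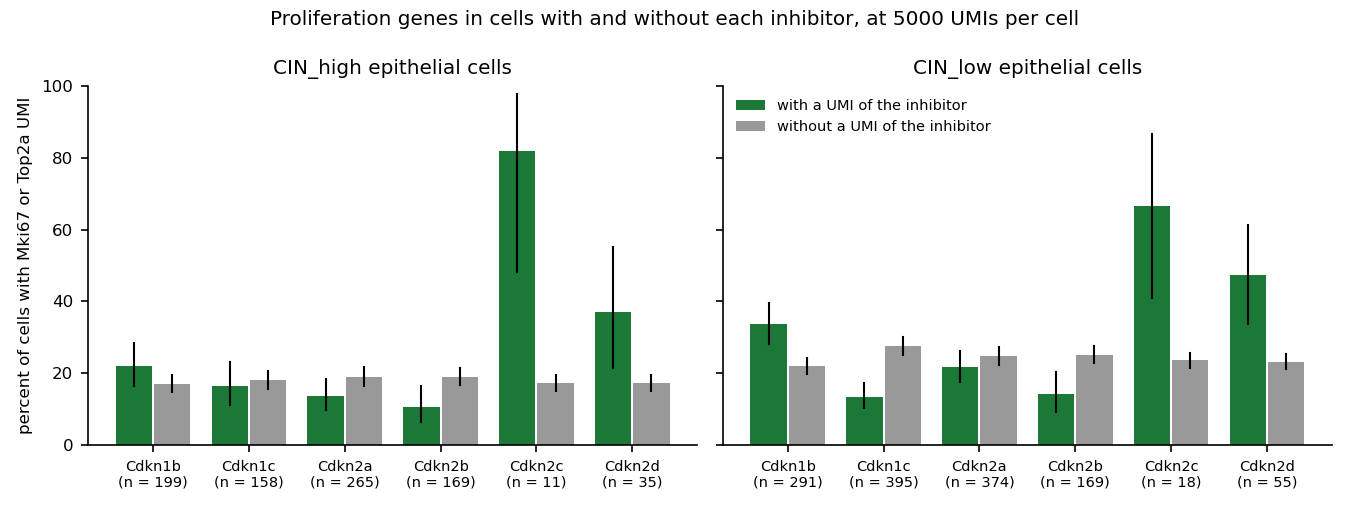
Percent of epithelial cells with a UMI of Mki67 or Top2a (vertical axis) among cells with (green) and without (grey) a UMI of each inhibitor, all cells thinned to 5000 UMIs, CIN_high on the left and CIN_low on the right. Lines are 95% Clopper-Pearson intervals and n is the number of cells with the inhibitor. Cells with Cdkn2c and Cdkn2d stand highest, at 81.8% and 37.1% in CIN_high and 66.7% and 47.3% in CIN_low.

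Among the cell types of the tumour, Cdkn1b was highest in T and NK cells, at 3.12 in CIN_high and 3.50 in CIN_low, followed by myeloid cells at 1.86 and 1.64, and epithelial cells were lowest. T and NK cells were set apart from myeloid cells, and epithelial from endothelial cells (1.09 and 0.867), by non-overlapping intervals in both libraries. Pericytes (1.52 and 1.31) and B cells (1.73 and 1.06) lay between and were not set apart from their neighbours in the order.

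Cdkn2a and Cdkn2b were largely epithelial. Outside epithelium Cdkn2a ranged up to 0.0354 in CIN_high and 0.0698 in CIN_low, both in T and NK cells, in the types with at least 50 cells per library. In myeloid cells 0.717% of CIN_high and 0.972% of CIN_low cells had a Cdkn2a UMI, at median depths of 5721.5 and 6171 UMIs, a level at which free RNA cannot be told apart from expression. Thinned to 2000 UMIs, 12.1% of epithelial cells in CIN_high and 10.6% in CIN_low had Cdkn2a, against 0.193% and 0.443% of myeloid cells. Cdkn2b reached 0.0510 in CIN_high fibroblasts, from 32 UMIs, and 0.0961 in CIN_low pericytes, from 6.

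Cdkn1c was shared with the stroma. In 966 CIN_high fibroblasts it averaged 0.579 and in 21 CIN_low fibroblasts 0.280, too few for a ratio. Pericytes had 0.459 in CIN_high and 0.364 in CIN_low, and endothelial cells 0.163 and 0.194, above the haematopoietic types. In myeloid cells 1.16% and 1.57% of cells had a UMI, a level at which free RNA cannot be told apart from expression. The ratio in pericytes was 1.26 (0.601 to 2.35) and in endothelial cells 0.840 (0.574 to 1.58). Neither ratio differed from 1 beyond counting error. Both intervals lay above the epithelial ratio of 0.536. Both also held the epithelial ratio at 1 common subtype mix, given above, and the Stem_cell_1 ratio of 0.644. Whether stroma and epithelium differ in this ratio was not tested.

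Cdkn2c was foremost in fibroblasts and pericytes, at 0.765 in CIN_high fibroblasts, where 33.2% of cells had a UMI, and at 0.343 in the 21 CIN_low fibroblasts, on 4 UMIs. Pericytes had 0.395 in CIN_high and 0.527 in CIN_low and carried fibroblast markers at 39.7 and 69.6 beside pericyte markers at 111 and 158, and the part of fibroblast RNA was not tested. Endothelial Cdkn2c was 0.245 in CIN_high and 0.128 in CIN_low, a mean ratio of 1.91, with a summed ratio of 1.46 (0.879 to 2.50). T and NK cells had 0.165 in CIN_high and 0.146 in CIN_low. Pericytes, endothelial cells and T and NK cells were not set apart from their neighbours in the order. Myeloid cells had 0.0612 and 0.0382, a ratio of 1.60, with a summed ratio of 1.26 (0.991 to 1.59). In myeloid cells too Cdkn2c went with cycling genes, in 33.3% (15.6% to 55.3%) of 24 CIN_high cells against 6.59% of the others, and in 25.0% (12.7% to 41.2%) of 40 CIN_low cells against 6.67%. These were 2 of 44 splits outside the epithelium with intervals apart.

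By mean level Cdkn2d was highest in haematopoietic cells, at 0.766 in 40 CIN_high and 0.659 in 93 CIN_low B cells, 0.502 and 0.522 in T and NK cells, and 0.481 and 0.504 in myeloid cells. Endothelial cells had 0.314 in CIN_high and 0.241 in CIN_low, and pericytes 0.280 and 0.149. By summed UMIs endothelial cells (0.345) stood above myeloid cells (0.322) in CIN_high, and these 2 types were not set apart in the order. Fibroblasts had 0.242 in CIN_high and 0.323 in CIN_low, on 178 and 5 UMIs. Cells with Cdkn2d were not richer in Mki67 or Top2a among myeloid cells, at 5.21% against 6.97% in CIN_high and 5.29% against 6.96% in CIN_low, with overlapping intervals.

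Outside the epithelium calls rested on 2 to 189 UMIs per library. In myeloid cells 1 of 3 measured inhibitors, Cdkn2c (119 UMIs in CIN_high and 189 in CIN_low), was higher past 1.5-fold, where 7.83% of all measured genes were higher and 3.3% lower (11.1% in all) and their median log2 ratio was 0.22. In endothelial cells 1 of 5, Cdkn2c (58 and 22 UMIs), was higher and 1, Cdkn2b (10 UMIs in each library), lower, where 12.8% of genes were higher and 19.6% lower (32.4% in all). In T and NK cells 1 of 4, Cdkn2a (5 and 15 UMIs in CIN_high and CIN_low), was lower, where 16.8% of genes were lower and 13.4% higher (30.2% in all). In pericytes Cdkn2d was higher and Cdkn2a and Cdkn2b lower, 3 of 6, where 25.8% of genes were higher and 23.3% lower (49.1% in all). The counting interval of every one of these ratios included 1.

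**Figure D5:**
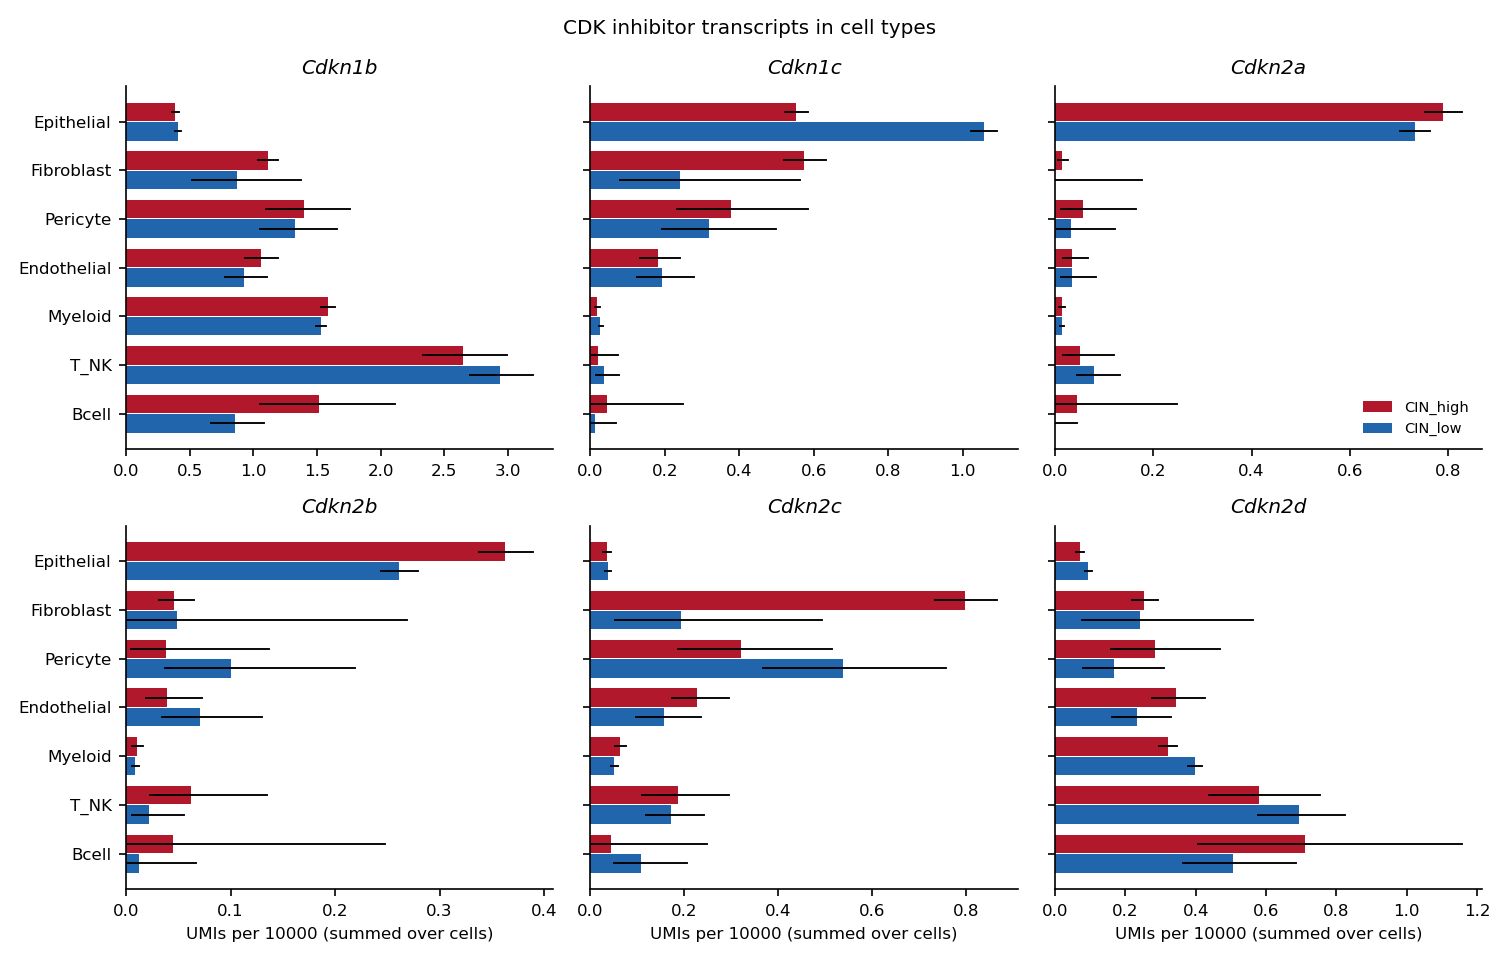
Summed UMIs of each inhibitor per 10000 UMIs (horizontal axes, each with its own scale) in 7 cell types, CIN_high in red above CIN_low in blue, with 95% Poisson intervals as black lines. Cdkn2a and Cdkn2b stand out in epithelial cells, Cdkn1b in T and NK cells and Cdkn2c in CIN_high fibroblasts. The CIN_low fibroblasts are 21 cells.

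The genes whose levels followed each inhibitor most closely over 7 epithelial subtypes were ranked by the lower of the 2 libraries' Pearson correlations of log2 levels, among 8551 genes. These are descriptions over 7 points that share cells and depth, and the subtypes were clustered on the same genes. Cdkn1c went closest with Plagl1, an imprinted zinc-finger transcription factor (0.97 in CIN_high and 0.98 in CIN_low), followed by Pnliprp2, Pex5l, Prodh and Fhit (lower value 0.94 to 0.96). Cdkn2a went with Adnp (0.96 and 0.98), Utp14a, Tut1, Mark3 and Tex10, Cdkn2b with the oncostatin M receptor gene Osmr (0.92 and 0.90), Dcxr, Ahnak2, Fat1 and C4bp, and Cdkn1b with Scpep1 (0.90 and 0.90), Cndp2, Lrp1, the myeloid marker Lyz2 and Uvrag. Cdkn2c and Cdkn2d had too few UMIs to be ranked.

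The partners and regulators of the inhibitors were read from lists, against the 7.7% lower, 4.16% higher and median log2 ratio of -0.097 of all genes measured in epithelium. Of 18 cyclin, CDK and CDK activator genes, all measured in epithelium, 3 were lower past 1.5-fold and 0 higher: the mitotic genes Cdc25c (0.0148 in CIN_high and 0.0253 in CIN_low), Ccnb1 (0.0722 and 0.115) and Cdk1 (0.144 and 0.224). The median log2 ratio of this list was -0.22. Of 16 Rb family and E2F genes 3 were lower and 0 higher, against those 7.7% and 4.16% of all genes, namely Rbl1, which encodes p107 (0.0847 and 0.145), E2f1 (0.0277 and 0.0451) and E2f7 (0.0159 and 0.0250), with a list median of -0.30. For E2f7 the interval of the ratio was 0.499 to 1.01. Of 15 proliferation markers 5 were lower and 0 higher, led by Hist1h1b (0.409 and 0.675), Rrm2 (0.0822 and 0.132) and Cdc20 (0.104 and 0.160), with a median of -0.49. Mki67 stood at 0.897 in CIN_high and 1.31 in CIN_low and Top2a at 0.695 and 1.06. Proliferating cells were the smaller share of CIN_high epithelium given above. With both libraries at 1 subtype mix, 5 genes pooled over all the lists were lower past the line, against 15 of 123 without that step. That mix also left out the S100a8/s100a9+_cell and Igfbp+_cell cells. The share of all measured genes past the line at that mix was not computed. The part of the subtype mix, or of the cells it left out, in these counts was not tested.

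Of 14 genes that turn over p27 and p57, 1 was lower: Skp2, the F-box protein that marks p27 for destruction (0.0415 in CIN_high and 0.0681 in CIN_low, a ratio of 0.609, 0.467 to 0.757). Of 10 genes of the ARF, Mdm2 and p53 axis, 1 was higher, Cdkn1a, given above. Of 25 genes that repress or activate the inhibitor genes, among them the Polycomb and Id genes, 0 passed the line either way, with a median of -0.23.

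In the imprinted cluster around Cdkn1c, 11 of 16 listed genes were measured and 1 passed the line, Tspan32, a tetraspanin gene (0.194 in CIN_high and 0.104 in CIN_low, a ratio of 1.87, 1.52 to 2.03). The list median was -0.058, near that of all genes, beside the log2 ratio of -0.90 for Cdkn1c itself. Of 7 genes beside Cdkn2a and Cdkn2b, 2 were measured and 0 passed the line.

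Of 15 genes for factors that senescent cells are known to secrete, 12 were measured, with 3 higher and 3 lower past the line, where 4.16% of all genes were higher and 7.7% lower, and a median of -0.19. The insulin-like growth factor binding protein genes Igfbp5 (0.142 in CIN_high and 0.0367 in CIN_low) and Igfbp7 (0.214 and 0.0748) and the monocyte chemokine gene Ccl2 (0.220 and 0.126) were higher. The neutrophil chemokine gene Cxcl2 (2.23 in CIN_high and 4.47 in CIN_low) and the interleukin 1 genes Il1a (0.0819 and 0.162) and Il1b (1.22 and 2.27) were lower. Fibroblast markers in epithelial cells summed to 0.549 in CIN_high and 0.0300 in CIN_low, and myeloid markers to 7.18 and 16.8. The 25 Igfbp+_cell cells, with fibroblast markers at 25.0 and 52% marked by Scrublet, were all in CIN_high, and the part of fibroblast or myeloid RNA in these 6 genes was not tested.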

How the data were processed

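Adenomas were dissociated and profiled on the 10x Genomics platform, per the labels' protocols. The submitters' processing notes name Cell Ranger 2.1.1, Seurat and mm10, and the sources used here do not give the annotation, cell filters or doublet handling. The matrix deposited by the authors holds natural log values, ln(1 + UMIs per 10000): the back-transformed values summed to 10000 in every cell, and divided by a cell's smallest value 100% were whole within 0.01, which gave the UMIs (801 to 109676 per cell, 126601828 in all). Classes, cell types and epithelial subtypes are the authors' deposited annotation.

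The design compared G4+T with G0+T and was run as CIN_high against CIN_low, because the labels of the libraries conflict. Levels, ratios, intervals (95%) and the 1.5-fold line are as described in the report, for groups with at least 50 cells in both libraries. A group at 0 was set to 3 UMIs. Samples of 1 library per class allowed no p-value. Thinning was to 5000 UMIs for epithelial subtypes and 2000 for cell types. Each library was screened for doublets with Scrublet (Scanpy 1.11.5, 6% assumed), which marked 2.29% of CIN_high and 3.15% of CIN_low cells, which were kept. Named list genes were up to 3 per direction and list, past 1.5-fold with at least 30 UMIs. Likeness used log2(level + 0.05), subtypes of at least 20 cells and genes with at least 200 UMIs. Coordinates are from GENCODE for mm10. In simulated epithelial cells (13468 genes) the 1.5-fold line was passed by 97.0% of genes changed 2-fold, 44.8% of those changed 1.5-fold and 2.65% of unchanged genes. The simulated counts were Poisson draws from 1 pooled epithelial profile, without subtypes, differences in mix or other differences between libraries. These shares therefore do not give error rates for the real libraries. The members and lists were chosen with earlier results of these data known. Python 3.11.15, numpy 2.4.6, pandas 2.3.3, SciPy 1.17.1 and matplotlib 3.10.9 were used.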

Additional observations from a re-analysis of the deposited data

Results flagged for a closer look

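Some inhibitor transcripts were counted in CIN_high cells that entered no comparison and for which CIN_low gave no adequate counterpart. In 18 CIN_high cells of unknown type, Cdkn1b stood at 2.12 UMIs per 10000, from 13 UMIs, and Cdkn2c at 1.18, from 10 UMIs, both above the limit of 3 UMIs. The 25 Igfbp+_cell cells of CIN_high held more than 3 UMIs of every inhibitor: Cdkn1b stood at 0.452, Cdkn1c at 0.716, Cdkn2a at 0.622, Cdkn2b at 0.299, Cdkn2c at 0.821 and Cdkn2d at 0.145. Scrublet marked 52% of these cells, and no CIN_low cell bears that name.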

How the results depend on the processing

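Of 76 alternative values for the 6 epithelial ratios and the list counts, 62 stayed within counting error or within 1.5 times of the main count, and 14 moved. Among the other values, the shares of cells with a UMI after thinning and the ratios in other cell types, 112 stayed, 145 moved and 1 reversed. For the ratios in other cell types alone, 43 stayed, 4 moved and 1 reversed. On the log2 scale the Cdkn1c ratio of -0.90 became -0.39 at a fixed subtype mix and -0.80 relative to the median of all measured genes. Cdkn2a (0.037) became 0.13 without the p57-named subtype and 0.13 relative to that median, Cdkn2d (-0.47) became -0.18 without Proliferating cells, and Cdkn2c (0.37) became -0.071 for summed UMIs, -0.29 at the fixed mix, 1.43 without Proliferating cells, 0.89 in cells with 5000 to 30000 UMIs and -0.63 without the 3 subtypes with most Scrublet marks, a setting chosen after seeing the data. The fixed mix sets the share of the subtype named for Cdkn1c, and it leaves out S100a8/s100a9+_cell and Igfbp+_cell cells. Igfbp+_cell cells held 25 of the 75 Cdkn2c UMIs of CIN_high epithelium. Of 123 measured list genes, 5 were higher and 15 lower. These counts were 2 and 1 at a 2-fold line and 3 and 5 at the fixed mix. The shares of all measured genes under those 2 settings were not computed. In pericytes Cdkn2a had a log2 ratio of -1.54 from mean levels and 0.76 from summed UMIs, on 3 and 2 UMIs in CIN_high and CIN_low. The cause of these moves was not tested. No paired analysis was possible because each class is 1 library, and for the same reason no library could be left out. Depth limits Cdkn2c, with 75 epithelial UMIs in CIN_high and 117 in CIN_low, and Cdkn2d, with 155 and 305.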
